A study of Mus musculus with 4 samples.

Results

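The genes of pulmonary surfactant and of the alveolar type 2 (AT2) cell that makes it were examined in endothelial cells (ECs) taken from mouse lungs with magnetic beads against CD31. They are 10 genes out of the 24063 gene symbols in the deposited tables, taken by symbol as a set of AT2 markers: Sftpc, Sftpb, Sftpa1, Sftpd, Abca3, Lamp3, Lpcat1, Slc34a2, Napsa and Etv5. All 10 were found, and all 10 were among the 16208 genes that passed the filter on low counts. The question was how much epithelial RNA of this kind the CD31-selected fraction carried, and whether it differed after unilateral pneumonectomy (PNX, removal of the left lung), which is followed by growth of the remaining lobes. All libraries came from C57BL6J mice, labelled as male and 8 weeks old. The sham group had 2 libraries from mice that underwent thoracotomy without removal of lung, and the PNX group had 2 libraries from mice whose ECs were taken 7 days after PNX. Each library pooled the cells of 2 mice, so each group rests on 2 pools. The spread between libraries of a group is the spread between such pools.

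Surfactant is a film of phospholipid and protein that lowers surface tension in the alveolus. AT2 cells store it in lamellar bodies, organelles related to lysosomes, and secrete it. They also divide and give rise to the flat alveolar type 1 (AT1) cells that line most of the alveolar surface, and they are known to proliferate in lungs that regrow after PNX. The 4 surfactant proteins are known mainly as products of epithelial cells. In a bulk library fewer AT2 cells in the fraction and less RNA per AT2 cell cannot be told apart.

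Facts of the whole fraction bear on every value below. With 1 transcript per gene, the libraries held 41367438 to 50952879 counts, so that 3 counts, taken as the smallest level that can be seen, came to 0.0589 to 0.0725 CPM (counts scaled to library size). Of the endothelial markers, Pecam1, the gene of CD31, had 90191 to 91116 normalized counts in every library. It does not stand for the list. Of the 12 markers 10 were lower after PNX, 1 was higher and 1 did not pass at adjusted p under 0.01 (edgeR). Their median log2 fold change was -0.22. Of all genes tested 27.8% were lower and 29.3% higher. The labelled sex could not be checked in full. Of 44 listed genes on chromosome Y none had a count in any library (0 counts), while Xist, the RNA of the inactive X chromosome, had 29890 to 36875 counts. The sources used here do not say whether chromosome Y reads were kept in processing, so the 0 counts alone do not bear on the label. Xist is an RNA of female cells, and its counts in every library go against the label of male mice. Neither value separated the groups.

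The promoter sequences of the 3 genes that fell most after PNX (Sftpa1, Lamp3 and Sftpb) are shown as a description. Whether these sequences bear on the fall was not tested. They are the 250 bases before the transcription start in RefSeq for build GRCm38.p6, which is mm10, read 5′ to 3′ on the gene's strand. Sftpb lies at chr6:72304360-72304609 (plus strand), Sftpa1 at chr14:41131538-41131787 (plus strand) and Lamp3 at chr16:19706366-19706615 (minus strand). Capitals mark matches on either strand to TCAAG, the core bound by NKX2-1, and to TGTTTNC, a motif of the FOXA factors. No match of one motif overlapped a match of the other.
Sftpb: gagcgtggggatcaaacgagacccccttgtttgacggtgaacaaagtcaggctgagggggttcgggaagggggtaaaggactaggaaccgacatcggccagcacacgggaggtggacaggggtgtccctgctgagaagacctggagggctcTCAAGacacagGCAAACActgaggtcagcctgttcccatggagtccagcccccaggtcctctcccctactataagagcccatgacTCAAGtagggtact
Sftpa1: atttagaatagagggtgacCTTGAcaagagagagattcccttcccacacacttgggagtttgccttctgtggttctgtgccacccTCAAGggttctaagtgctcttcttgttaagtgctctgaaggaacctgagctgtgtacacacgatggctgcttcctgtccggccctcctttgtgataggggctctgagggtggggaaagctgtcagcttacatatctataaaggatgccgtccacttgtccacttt
Lamp3: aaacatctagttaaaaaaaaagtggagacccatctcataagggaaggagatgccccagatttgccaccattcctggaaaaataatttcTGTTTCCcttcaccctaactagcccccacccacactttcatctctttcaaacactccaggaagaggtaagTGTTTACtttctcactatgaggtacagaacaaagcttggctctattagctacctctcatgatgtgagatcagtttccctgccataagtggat
The Sftpb promoter held TCAAG at 99 and 14 bases before the start and a FOXA match at 88 bases. Sftpa1 held TCAAG at 231 and 165 bases and no FOXA match, and Lamp3 held FOXA matches at 162 and 92 bases and no TCAAG. Of the 7 members found in the RefSeq promoter table, Slc34a2, Lpcat1 and Abca3 held neither motif in this window, and Etv5 had a FOXA match 183 bases before the first of its starts. Sftpc, Sftpd and Napsa were not among them. In the same window TCAAG was found in 35.9% and TGTTTNC in 17.8% of all 32851 promoters in the table, so the matches are a description of the letters and not of binding.

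The CD31-selected fraction carried AT2 RNA at a high level in both groups. Levels between genes were compared as the deposited TPM, which accounts for transcript length. Sftpc, which encodes the hydrophobic surfactant protein C and is the defining AT2 transcript, lies at chr14:70520941-70524081 and had 7399 and 7368 TPM in the sham libraries and 4700 and 4666 TPM in the PNX libraries. By TPM it was the gene of rank 2 in both sham libraries, below the club cell gene Scgb1a1, and of rank 3 in both PNX libraries, below Lyz2 and Scgb1a1. The ratio of Sftpc to Pecam1 TPM was 7.77 and 7.71 in sham and 5.08 and 5.03 after PNX. Together the 10 genes held 0.761% (95% Wilson interval 0.759% to 0.763%) and 0.764% (0.761% to 0.766%) of the counts in the sham libraries. After PNX they held 0.503% (0.501% to 0.505%) and 0.499% (0.497% to 0.501%). These intervals cover counting error only.

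The order of the 10 levels was the same in both groups. Sftpb followed Sftpc at 1025 ± 12.5 TPM (SD, n = 2) in sham and 637 ± 3.60 TPM (SD, n = 2) after PNX, and Sftpa1 had 691 ± 10.4 (SD, n = 2) and 412 ± 0.291 (SD, n = 2). Sftpd, Slc34a2 and Napsa lay next, at 326, 244 and 157 TPM in sham. The lowest 4 were Lpcat1 (110 TPM in sham), Lamp3 (106), Abca3 (65.8) and Etv5 (29.1), so that Sftpc was 254 times as high as Etv5. Lpcat1 and Lamp3 were neighbours in sham that could hardly be separated, with 108.3 and 111.7 TPM against 107.9 and 103.6 TPM. After PNX the same pair stood further apart, at 77.5 and 78.3 TPM against 65.8 and 65.1 TPM.

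**Figure D1:**
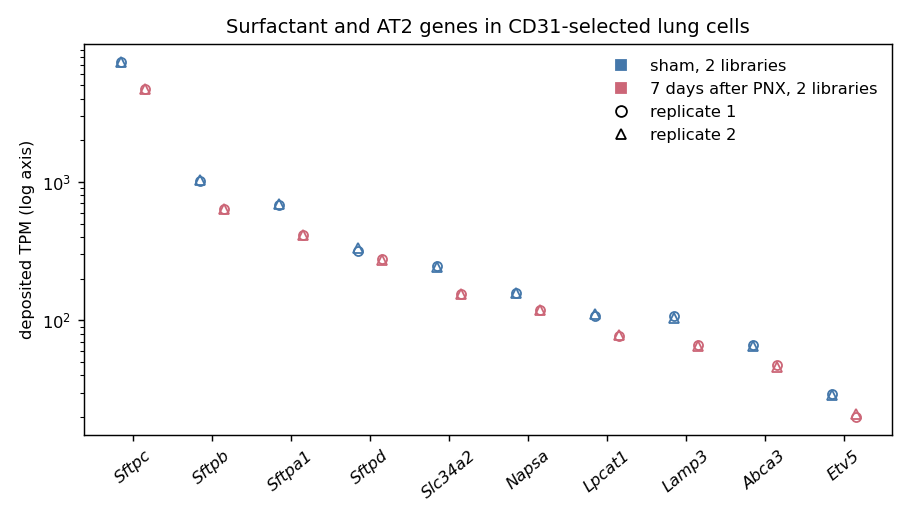
Deposited TPM (log axis) of the 10 genes in each library, sham in blue and PNX in red, with circles for replicate 1 and triangles for replicate 2. In every gene both PNX libraries lie below both sham libraries, from Sftpc (7368 and 7399 against 4666 and 4700 TPM) to Etv5 (28.8 and 29.4 against 19.9 and 21.1 TPM). The share of all genes with such a separation was not counted.

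All 10 genes were lower in the PNX libraries. With the edgeR quasi-likelihood test and Benjamini-Hochberg adjustment over all 16208 genes, each had an adjusted p under 0.01, against a background of 27.8% of genes tested that were lower at that threshold. None was higher, against a background of 29.3%. No member had a log2 fold change under -1, which with the adjusted p was met by 1.66% of genes tested. The median log2 fold change of the 10 genes was -0.55, and that of all genes tested was 0.00. Replicates lay close together over all genes, with a median SD of log2 CPM of 0.036. The share of all genes whose groups did not overlap was not counted. When counts were scaled to the 12 endothelial markers, the median log2 fold change of all genes moved to 0.22, and 9 of the 10 members were lower and 0 higher at the same threshold, against 10.1% of genes tested lower and 54.3% higher. Scaled to 12 pan-epithelial markers it moved to 0.27, and 8 members were lower and 0 higher, against 7.68% lower and 58.0% higher. Under both scalings the member that was no longer lower was Sftpd, with log2 fold changes of 0.01 and 0.06, and under the pan-epithelial scaling Napsa joined it.

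The hydrophobic proteins SP-B and SP-C spread the lipid film. Sftpc had 171272 and 170757 normalized counts (counts divided by TMM-adjusted size factors) in sham and 111404 and 110651 after PNX. The PNX libraries were below the sham libraries by far more than replicates differed. The change was -0.62 ± 0.015 on the log2 scale (SE, edgeR adjusted p = 2.6e-43), so that 64.9% of the sham level was left. Sftpb, at chr6:72304610-72314373, had 45834 and 46686 normalized counts in sham and 29510 and 29288 after PNX. Its change was -0.65 ± 0.017 on the log2 scale (SE, edgeR adjusted p = 1.0e-40). The 2 RefSeq transcripts of Sftpb had nearly the same counts (the second at 99.9% of the first), so the tables do not tell which was used.

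The collectins SP-A and SP-D are soluble proteins of innate defence that bind sugars on microbes, and their genes lie close together on chromosome 14. Sftpa1, at chr14:41131788-41136373, had 54691 and 55930 normalized counts in sham and 33719 and 33768 after PNX. It was the member with the largest fall, at -0.71 ± 0.017 as log2 of PNX over sham (SE, edgeR adjusted p = 4.2e-43). Its neighbour Sftpd, at chr14:41172212-41185198, had 12186 and 12725 normalized counts in sham and 10823 and 10666 after PNX. The groups did not overlap, but the change of -0.21 ± 0.022 on the log2 scale (SE, edgeR adjusted p = 3.8e-13) was the smallest of the 10. Under the endothelial scaling it was 0.01 (adjusted p = 0.71 from edgeR) and under the pan-epithelial scaling 0.06 (adjusted p = 0.21 from edgeR). SP-D is also made by airway secretory cells. All 8 listed markers of these cells were lower at adjusted p under 0.01 (edgeR), against 27.8% of all genes tested. Their median log2 fold change was -1.02, and their part in the Sftpd value was not tested.

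Lamellar bodies are filled and built by a further set of proteins. Abca3, at chr17:24351921-24410204, encodes the transporter that moves phospholipid into the lamellar body. It had 12411 and 12177 normalized counts in sham and 9107 and 8849 after PNX, or -0.45 ± 0.022 as log2 of PNX over sham (SE, edgeR adjusted p = 2.2e-27). An antisense gene, D330041H03Rik, overlaps the end of Abca3 and had 5918 counts over the 4 libraries. Since it is not stated whether counting used strand, reads of the pair may be mixed there. Lamp3, at chr16:19653381-19706365, encodes a membrane protein of lamellar bodies that mature dendritic cells also make. It had 10399 and 9991 normalized counts in sham and 6493 and 6429 after PNX, or -0.66 ± 0.023 as log2 of PNX over sham (SE, edgeR adjusted p = 5.1e-34). Of the 5 markers of mature dendritic cells 2 were lower and 3 higher at adjusted p under 0.01 (edgeR). Of all genes tested 27.8% were lower and 29.3% higher. The 5 markers had summed levels of 117 TPM in both sham libraries and 129 to 130 TPM after PNX, and their part in the Lamp3 value was not tested. Napsa, at chr7:44572445-44586846, encodes the aspartic protease that takes part in cutting the SP-B precursor. It had 6671 and 6694 normalized counts in sham and 5166 and 5193 after PNX, or -0.37 ± 0.025 as log2 of PNX over sham (SE, edgeR adjusted p = 3.0e-20). In each of these 3 genes both PNX libraries lay below both sham libraries, a separation whose share among all genes was not counted. An antisense gene at Napsa, Gm15396, was not listed in the tables.

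The remaining members serve lipid synthesis, phosphate uptake and cell identity. Lpcat1, at chr13:73467231-73516420, encodes the acyltransferase that makes the main surfactant phospholipid. It had 5010 and 5172 normalized counts in sham and 3673 and 3711 after PNX, or -0.46 ± 0.028 as log2 of PNX over sham (SE, edgeR adjusted p = 1.6e-22). Slc34a2, at chr5:53049353-53071664, encodes the sodium-dependent phosphate transporter of the AT2 surface. It had 29606 and 29169 normalized counts in sham and 19187 and 18947 after PNX, or -0.62 ± 0.019 as log2 of PNX over sham (SE, edgeR adjusted p = 3.4e-38). Etv5, at chr16:22381313-22439570, encodes an ETS transcription factor needed to keep AT2 identity. It had 3235 and 3174 normalized counts in sham and 2241 and 2383 after PNX, or -0.47 ± 0.034 as log2 of PNX over sham (SE, edgeR adjusted p = 2.4e-19). In each of the 3 genes the groups were separated by more than their spread, and how many of all genes were so separated was not counted.

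**Figure D2:**
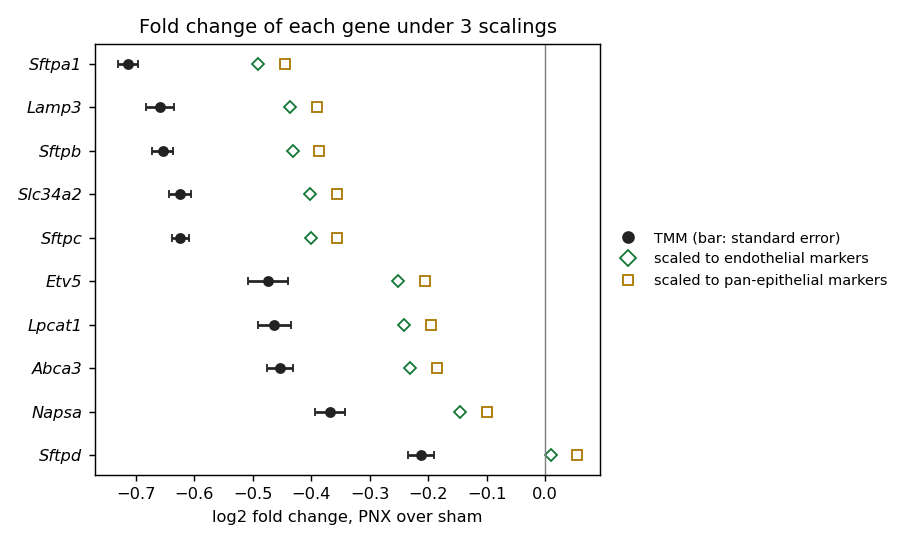
Log2 fold change (PNX over sham) of the 10 genes under TMM (black, bars are the standard error), scaled to endothelial markers (green diamonds) and scaled to pan-epithelial markers (brown squares). Sftpa1 has the largest fall (-0.71 under TMM) and Sftpd the smallest (-0.21), and Sftpd crosses 0 under both marker scalings (0.01 and 0.06).

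The size of the fall varied among the 10 genes, which is described here by ratios of TPM within a library, since these need no scaling between libraries. Slc34a2 kept its ratio to Sftpc, with 0.0333 and 0.0329 in sham and 0.0331 and 0.0329 after PNX. Sftpb and Lamp3 also stayed near Sftpc, with the mean ratio after PNX at 0.979 and 0.976 of sham, and Sftpa1 was at 0.940. Sftpd stood apart, at 0.0431 and 0.0451 of Sftpc in sham and 0.0588 and 0.0584 after PNX, a mean ratio 1.33 times that of sham. The mean ratio after PNX was 1.19 times that of sham for Napsa, 1.12 times for Abca3 and Lpcat1 and 1.11 times for Etv5. In these 5 genes both PNX ratios were above both sham ratios, and the share of all genes with such ratios was not counted. With 2 libraries a group an exact two-sided permutation test cannot give a p below 0.333, and the differences between members were not tested.
Epcam, a surface protein of most epithelia, gave another reference within each library. Sftpc was 399 and 396 times as high as Epcam in TPM in sham and 370 and 351 times after PNX. Sftpa1 had ratios to Epcam of 36.8 and 37.5 in sham and 32.4 and 31.0 after PNX, the lowest mean ratio against sham of the 10. Abca3, Lpcat1 and Etv5 had mean ratios to Epcam at 1.02, 1.01 and 1.01 of sham, and their libraries overlapped between the groups. Napsa was at 1.08 of sham, without overlap. The ratio of Sftpd to Epcam was 17.2 and 17.9 in sham and 21.8 and 20.5 after PNX, without overlap. These ratios depend on the reference, since Epcam itself had a log2 fold change of -0.48 and Cdh1, another epithelial gene, -0.25. Against Cdh1 the mean ratios ran from 0.724 of sham (Sftpa1) to 1.02 (Sftpd). Sftpc was at 0.770, and Abca3, Lpcat1 and Etv5 were at 0.866, 0.860 and 0.856.

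**Figure D3:**
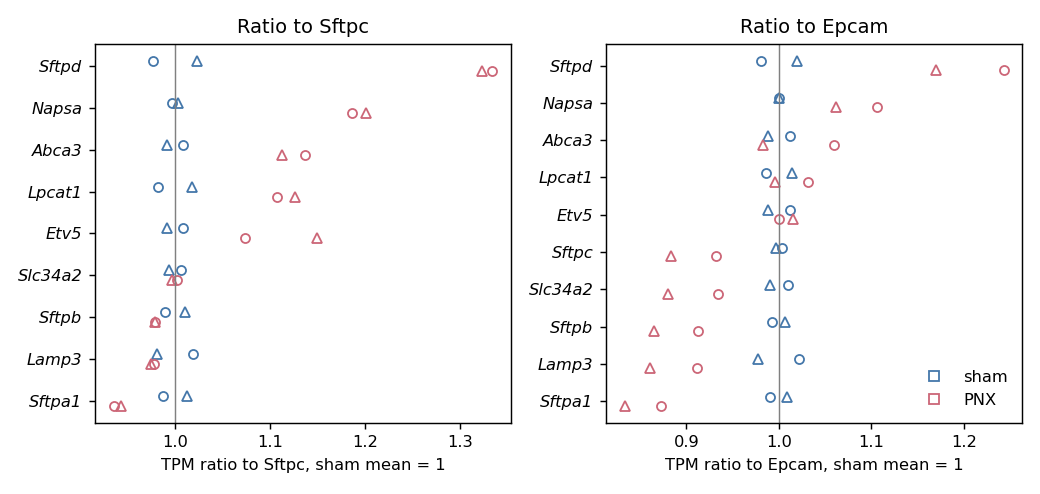
Ratio of each gene's TPM to that of Sftpc (left) and Epcam (right) in each library, divided by the mean of the 2 sham libraries (blue sham, red PNX, circles replicate 1, triangles replicate 2). Sftpd lies farthest right in both panels (mean ratios 1.33 and 1.21 of sham), and Slc34a2 stays at 0.999 of its sham ratio to Sftpc.

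Other genes of the AT2 programme moved in the same direction in most cases. Of 16 further AT2 genes, all tested, 13 were lower, 2 were higher and 1 (Lrp2) did not pass at adjusted p under 0.01 (edgeR). Of all genes 27.8% were lower and 29.3% higher. The median log2 fold change of the 16 genes was -0.38. Under the endothelial scaling 9 were lower and 3 higher, against 10.1% and 54.3% of all genes, and under the pan-epithelial scaling 7 and 3, against 7.68% and 58.0%. Cxcl15, the lung chemokine lungkine, had 18554 and 18344 normalized counts in sham and 13307 and 13151 after PNX (log2 fold change -0.48). Chil1, a chitinase-like protein, had a log2 fold change of -0.33. Past a log2 fold change of -1 under TMM, but not under either marker scaling, Foxa1 had 637 and 590 normalized counts in sham and 303 in both PNX libraries (log2 fold change -1.02), and Pla2g1b, a secreted phospholipase, had 156 and 147 against 55.0 and 81.3 (log2 fold change -1.17). Ctsh, a lysosomal protease that cuts surfactant protein precursors and is also made by macrophages, went the other way, from 6371 and 6550 to 8614 and 8318 normalized counts (log2 fold change 0.39, adjusted p = 3.0e-22 from edgeR). Dlk1 had 1 and 3 counts in sham and 50 and 43 after PNX, a ratio of 25.4 (95% counting interval 9.59 to 95.1). The regulators Nkx2-1, Foxa2 and Cebpa, named after their values were seen, had log2 fold changes of -0.55, -0.59 and -0.20, and Cebpa was at 0.02 and 0.07 under the endothelial and pan-epithelial scalings. Nkx2-1, the factor that directs lung epithelial identity, had 1869 and 1791 normalized counts in sham and 1246 and 1251 after PNX.
Enzymes of fatty acid and phosphatidylcholine synthesis, which many cells use, moved in both directions. Of 8 genes 4 were lower, 2 higher and 2 did not pass (edgeR), against 27.8% of all genes lower and 29.3% higher. Their median log2 fold change was -0.07. Under the endothelial and the pan-epithelial scaling 1 was lower and 5 of the 8 were higher, near the share of all genes that were higher under these scalings (54.3% and 58.0%). Scd1, a fatty acid desaturase, was lower in each of these fits, from 22721 and 22608 to 15736 and 15805 normalized counts (log2 fold change -0.52).

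RNA of other epithelial cells was lower after PNX as well in most of the listed genes. Of all genes tested, 27.8% were lower and 29.3% higher under TMM, and 1.66% were lower past -1. The shares lower and higher were 10.1% and 54.3% under the endothelial and 7.68% and 58.0% under the pan-epithelial scaling. Of the 8 club and secretory cell genes all 8 were lower under each of the 3 scalings, with a median log2 fold change of -1.02 under TMM, -0.80 under the endothelial and -0.76 under the pan-epithelial scaling. Under TMM 5 of them were past -1, under the endothelial scaling 2 (Bpifa1 and Cyp2f2, the latter named after its values were seen) and under the pan-epithelial scaling 1 (Bpifa1). Scgb1a1, the main club cell secretory protein, had 145078 and 146435 normalized counts in sham and 72062 and 69261 after PNX (log2 fold change -1.04), and Bpifa1 had the largest fall in the list (-2.12). The ratio of Sftpc to Scgb1a1 was 0.688 and 0.680 in sham and 0.901 and 0.931 after PNX. The 8 ciliated cell genes tested were also all lower under each scaling, with a median of -0.93, among them Ccdc153 (-1.03) and Dnah5 (-1.18). Of the 10 AT1 genes 9 were lower and 1 higher (median -0.37), with Ager at -0.38 and Rtkn2 at -0.99. Under the endothelial and pan-epithelial scalings 7 and 5 of the AT1 genes were lower and 2 higher in each. Sftpc to Ager was 9.61 and 9.41 in sham and 8.12 and 7.93 after PNX.
Of the 12 pan-epithelial genes 7 were lower, 1 was higher and 4 did not pass, with a median of -0.25. Under both marker scalings 4 were lower and 3 higher, with medians of -0.03 (endothelial) and 0.01 (pan-epithelial). Of all genes 10.1% and 7.68% were lower and 54.3% and 58.0% higher under these 2 scalings. Epcam had 1103 and 1107 normalized counts in sham and 772 and 809 after PNX (log2 fold change -0.48), and Esrp2, a splicing factor of epithelia, had the largest fall (-0.64). Cdh1, the gene of E-cadherin, had a log2 fold change of -0.25 under TMM, -0.02 under the endothelial and 0.02 under the pan-epithelial scaling. Krt8, a keratin of simple epithelia and of mesothelium, was higher under each scaling (0.11 under TMM). The 4 basal cell genes had low levels, 2.01 to 5.89 TPM in sum, with 2 lower and 1 higher. The last was Krt14 (16.3 and 28.5 against 259 and 260 normalized counts).

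**Figure D4:**
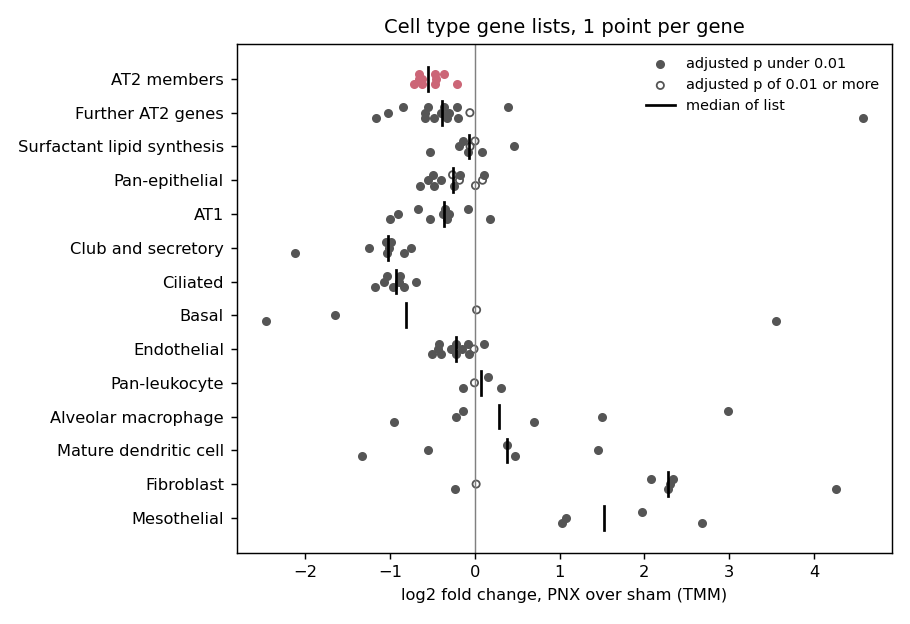
Log2 fold change (PNX over sham, TMM) of each tested gene of 14 lists, with the 10 surfactant and AT2 genes in red, filled points for an adjusted p under 0.01, open points for one of 0.01 or more, and bars for the list medians. The AT2 members (median -0.55) lie between the pan-epithelial genes (-0.25) and the club (-1.02) and ciliated (-0.93) cell genes, and the fibroblast (2.27) and mesothelial (1.52) lists lie on the other side of 0.

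Markers of cells outside the epithelium moved at the same time, and their part in the fall of the AT2 genes was not tested. The counts of these lists under TMM stand against 27.8% of all genes lower and 29.3% higher. Of the 12 endothelial markers 10 were lower, 1 was higher and 1 did not pass (median log2 fold change -0.22), with summed levels of 6150 and 6213 TPM in sham and 5198 and 5218 TPM after PNX. Under its own scaling 4 of this list were lower and 5 higher, against 10.1% and 54.3% of all genes. Tek, the gene of the receptor Tie2, fell most (-0.50), and Egfl7, with the highest TPM of the list averaged over the 4 libraries, had a log2 fold change of -0.43. The 7 fibroblast markers had summed levels of 488 to 494 TPM in sham and 1673 to 1686 TPM after PNX (5 higher, 1 lower), with Col3a1 at a log2 fold change of 2.27 and Lum at 4.26. The 4 mesothelial markers, all higher, had 83.5 to 85.3 TPM in sham and 245 to 246 TPM after PNX, with Msln at 1.97 and Wt1 at 2.68.
Alveolar macrophages take up and degrade surfactant. Of their 6 markers tested 3 were lower and 3 higher, with summed levels of 1967 to 1991 TPM in sham and 4677 to 4785 TPM after PNX, set mainly by Chil3 (1500 and 1491 TPM against 4190 and 4083 TPM), while Marco had the largest log2 fold change (2.99). The 4 pan-leukocyte markers had 462 to 466 TPM in sham and 473 to 477 TPM after PNX, with 1 lower and 2 higher under TMM and all 4 higher under both marker scalings, where 54.3% and 58.0% of all genes were higher. Laptm5 and Cd53 were at log2 fold changes of 0.16 and 0.30. In the mature dendritic cell list 2 genes were lower and 3 higher. Fscn1 had the largest change (log2 fold change 1.45), from 19.8 and 19.6 TPM in sham to 52.5 and 52.6 TPM after PNX. Ccr7, named after its values were seen, had the lowest log2 fold change of the list. It was at -1.33 under TMM, -1.11 under the endothelial and -1.06 under the pan-epithelial scaling.

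The mean profile of the 4 surfactant protein genes over the 4 libraries was also found in genes outside the lists, an endothelial one among them. This mean joins Sftpa1, Sftpb and Sftpc (log2 fold changes of -0.71, -0.65 and -0.62) with Sftpd (-0.21). Among 13293 genes outside all lists whose mean reached 100 normalized counts, those nearest to the mean centred log2 profile of Sftpa1, Sftpb, Sftpc and Sftpd were Eng, Mcf2l, Krt23, Pllp and Zfp609, at Euclidean distances of 0.0119 to 0.0209. Eng, an endothelial co-receptor of the TGF-beta family, had 720 and 728 TPM in sham and 487 and 485 TPM after PNX (log2 fold change -0.54). Krt23, a keratin, had 6.21 and 6.29 TPM in sham and 4.13 and 4.17 after PNX. A total of 340 such genes lay within a distance of 0.1 of the mean profile, and 2591 were nearer to it than Sftpd. The surfactant protein genes themselves lay at 0.0763 (Sftpc) to 0.339 (Sftpd). The nearest genes thus match the mean and not any single surfactant protein gene.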

How the data were processed

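RNA was measured in CD31-selected mouse lung cells with 2 sham and 2 PNX libraries. According to the study's methods, ECs were freed with collagenase, bound to an APC antibody to CD31 and microbeads and passed over 2 columns, then checked by FACS as CD31+, VE-Cadherin+ and CD45-. Sequencing used a TruSeq Stranded mRNA kit, with reads mapped to mm10. STAR is named in the submitters' processing notes, and the counting program and its strand setting are not given in the sources used here. The authors deposited whole-number counts per RefSeq transcript without normalization, and TPM per transcript. The deposited FPKM values were not used. Since a read was counted for every transcript it overlaps, 1 transcript stood for each symbol, the one whose counts summed highest across libraries, for counts and for TPM alike.

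Differential expression was tested on the counts with edgeR 4.0.16 under R 4.3.3 (filterByExpr, TMM factors of 0.9985 to 1.0026, quasi-likelihood F test without covariates, Benjamini-Hochberg adjustment over 16208 genes). The thresholds were an adjusted p under 0.01 and, where stated, a log2 fold change beyond 1. The standard error is the size of the log2 fold change divided by the square root of F. Alternatives were DESeq2 1.42.0, other scalings, filters and thresholds, counts summed over transcripts, a replicate block and each library left out. Marker scalings used the geometric mean of the listed genes. The steps were tested on simulated data. The chi-square between replicates averaged 1.76 (sham) and 1.52 (PNX) per gene, above counting noise. This value cannot tell separate pools from separate libraries of 1 pool. The libraries were treated as separate pools because the study's methods describe them so.

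The members and gene lists were chosen with earlier results of these data known. Named are all members, in the further AT2 list the genes past both thresholds and the 3 with the highest TPM, and in other lists the gene with the highest TPM and that with the largest change where the mean reached 50 normalized counts, with Epcam and Cdh1 always. Deup1 and Siglecf were not found by symbol. Positions are those of RefSeq for GRCm38.p6, and overlapping genes those of GENCODE M21.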

Additional observations from a re-analysis of the deposited data

How the results depend on the processing

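The number of members lower at adjusted p under 0.01 was 8 to 10 in every fit that counted it. Their median log2 fold change was -0.33 under the endothelial and -0.28 under the pan-epithelial scaling, which shift all genes by 0.22 and 0.27. Such scalings move every gene by nearly the same amount. The median relative to all genes therefore had to stay at -0.55 and is no separate check. Under these scalings Sftpd turned to 0.0097 and 0.055, and under the pan-epithelial one Napsa (-0.10, adjusted p = 0.028 from edgeR) did not pass. In the other 12 alternatives that give fold changes all 10 members stayed lower past the threshold, with ranges from -0.73 to -0.70 for Sftpa1 and from -0.24 to -0.18 for Sftpd. For the further AT2 genes the median was -0.16 and -0.11 under the 2 marker scalings, the count lower at any size was 7 under the pan-epithelial scaling, and the count past both thresholds was 0 under both marker scalings and under glmTreat. With each library left out this median ranged from -0.43 to -0.35 and the count past both thresholds from 1 to 2. It was 1 without sham replicate 1 and without PNX replicate 1. For the 5 lists of other epithelial genes, the 10 genes lower past both thresholds became 4 under the endothelial scaling, 3 under the pan-epithelial scaling and 2 under glmTreat. The libraries share only a number across groups (correlation of deviations of same-numbered libraries 0.03, different mice), and with the replicate block 10 members were lower with a median of -0.55. With 2 pools a group, p-values rest only on the spread between these pools, which the fits estimate in part over all genes tested. They are thus not a measure of the spread of 1 gene alone.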
